A study of Mus musculus with 4 samples.

Results

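The cells described here are the distal convoluted tubule (DCT) cells of mouse kidney, chosen from single-cell RNA libraries by their RNA for the thiazide-sensitive Na-Cl cotransporter, Slc12a3. A cell barcode was taken when it held at least 500 unique molecular identifiers (UMIs, each standing for 1 captured mRNA molecule), at most 50% of them from mitochondrial genes, at least 3 UMIs of Slc12a3 and more of Slc12a3 than of Slc12a1, and no UMI of the leukocyte gene Ptprc. Of 60670 deposited barcodes 56471 met the limits on depth and mitochondrial share, and 1101 of those were inside the Slc12a3 gate. The gate was set on the measured values of Slc12a3, Slc12a1 and Ptprc, so the levels of these genes describe the choice and test nothing.

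The kidneys came from male C57BL/6 mice 6-8 weeks old that received glyoxylate, an oxalate precursor used to bring on calcium oxalate crystal nephropathy, by intraperitoneal injection on 0, 1, 4 or 7 successive days (D0, D1, D4 and D7). The D0 mice received none. Kidney tissue was dissociated with trypsin and DNase and loaded on a 10x Genomics 3' droplet system, with 1 library per time point, and the number of mice behind a library is not stated in the labels. Each day is therefore 1 library against the single D0 library, the animal and the day cannot be told apart, and the intervals below cover counting error only. The 3 comparisons share the D0 library.

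The distal convoluted tubule lies between the thick ascending limb of Henle's loop (TAL) and the connecting tubule. Its cells reabsorb sodium chloride through Slc12a3 under the control of the WNK kinases, and they set the final loss of magnesium in the urine through the channel Trpm6, which epidermal growth factor stimulates. The late part of the segment also moves calcium with the calcium-binding proteins Calb1 and S100g, while parvalbumin (Pvalb) marks its early part. The cells are dense in mitochondria, and a high mitochondrial RNA share is usual for them.

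The gate held 347 cells at D0, 255 at D1, 199 at D4 and 300 at D7. In the same order that was 2.40% (exact 95% Clopper-Pearson interval 2.15 to 2.66%), 2.23% (1.97 to 2.52%), 1.24% (1.07 to 1.42%) and 2.08% (1.85 to 2.32%) of the passing barcodes. The D4 share was the lowest of the 4, and its interval lay below the other 3. The deposited barcode lists began at 500, 500, 2919 and 2773 UMIs, which alters the denominator between days. With a common floor of 3000 UMIs per cell the shares were 2.78%, 2.63%, 1.25% and 2.10%, so D4 stayed lowest. Among cells at or below 25% mitochondrial UMIs the shares were 0.849%, 1.21%, 0.939% and 1.68%, and there D0 was lowest. At the threshold, 25, 19, 33 and 24 cells held exactly 3 UMIs of Slc12a3, and 41, 66, 29 and 33 cells that met the other limits held 2 and stayed outside. Fewer DCT cells and fewer cells above the threshold because each held less Slc12a3 RNA cannot be told apart in such a share.

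**Figure D1:**
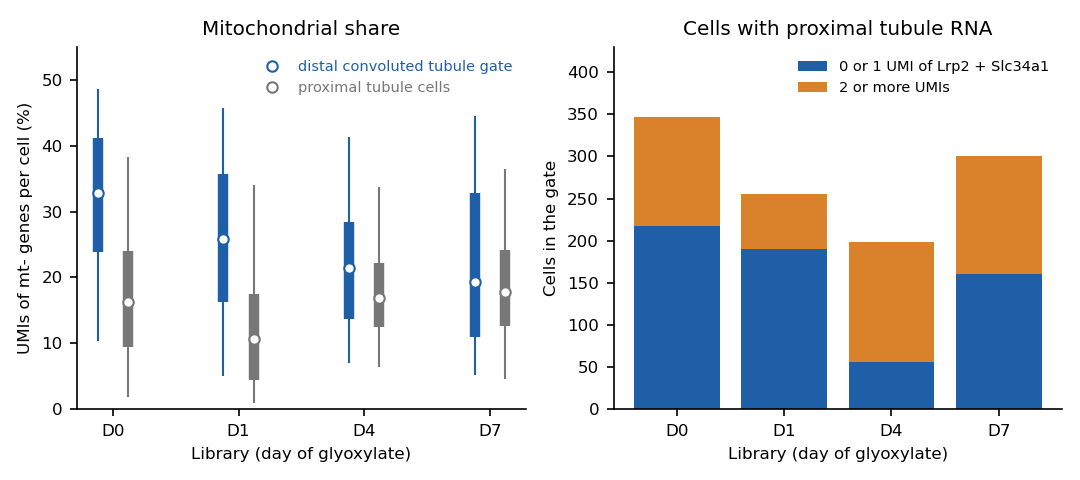
Left, mitochondrial share of UMIs per cell in the DCT gate and in proximal tubule cells by library, with a circle at the median, a thick bar from the lower to the upper quartile and a thin line over the central 90% of cells; right, number of gated cells without and with proximal tubule RNA (2 or more UMIs of Lrp2 and Slc34a1 together). The median share in the gate is 32.8% at D0 and 19.2% at D7, and at D4 143 of 199 gated cells hold proximal tubule RNA.

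The gated cells held RNA of a DCT marker outside the rule, and also RNA of connecting tubule markers. Tmem52b, a distal convoluted tubule marker that the rule did not use, stood at 1276, 1254, 1019 and 1041 CPM (UMIs of the gene per 1000000 UMIs of genes outside the mitochondrial genome) at D0, D1, D4 and D7, against 4.11 to 4.81 CPM in proximal tubule cells of the same libraries. After thinning every cell to 1000 UMIs, 55.5%, 54.4%, 49.8% and 54.7% of gated cells still held a Tmem52b UMI. Of the TAL genes that the gate did not use, the defining gene Cldn16 was near zero, at 0 to 0.481% of its level in TAL cells of the same libraries. Slc12a1 stood at 0 to 0.427%, a value that the choice of both groups fixed. The other markers of the list were shared with the TAL to a greater degree, with Cldn19 at 2.02 to 8.82%, Ptger3 at 7.55 to 20.4%, Cldn10 at 8.95 to 21.0%, Umod at 31.7 to 42.0% and Egf at 44.1 to 60.0% of the TAL level. The TAL cells were the 100, 102, 98 and 160 cells with at least 3 UMIs of Slc12a1 and none of Slc12a3 or Ptprc. In 11, 18, 7 and 13 gated cells none of the other markers Calb1, Pvalb and Tmem52b was seen. The connecting tubule markers Slc8a1, Trpv5, S100g, Klk1 and Calb1 summed to 11005.0, 11065.9, 11011.8 and 13714.5 CPM. The DCT markers, Slc12a3 included and Calb1 on both lists, summed to 7361.2, 5876.1, 4252.5 and 5242.3 CPM. Whether some gated cells were connecting tubule cells was not tested.

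The libraries differed in quality in ways that touch every comparison. The gated cells held a median of 5793, 5868, 5686 and 5492 UMIs, of which 32.8%, 25.9%, 21.4% and 19.2% were mitochondrial at D0, D1, D4 and D7. In proximal tubule (PT) cells, with at least 2 UMIs of Lrp2 and Slc34a1 together and none of Slc12a3, the same medians were 16.2%, 10.7%, 16.9% and 17.9%. Cells at or below 25% mitochondrial UMIs made up 97 of 347, 123 of 255, 125 of 199 and 190 of 300 gated cells, while 123, 75, 16 and 33 cells that met every other limit were above 50% and left out. Over 14 PT marker genes, the gated cells held a median of 30.3% of the PT level at D0, 21.0% at D1, 49.4% at D4 and 32.8% at D7. Cells with at least 2 UMIs of Lrp2 and Slc34a1 made up 37.5%, 25.5%, 71.9% and 46.7% of the gate. Without them 217, 190, 56 and 160 cells remained, in which the same measure was 5.55%, 5.30%, 6.87% and 7.19%. These are called the cells without PT RNA, and every gene below was also computed in them. The TAL cells held PT RNA too. Over 16 PT markers, Lrp2 and Slc34a1 included, the whole gate stood at a median of 103%, 75.5%, 129% and 108% of the TAL level. The TAL ratios below were taken over all TAL cells. Of other cell types, leukocyte markers summed to 39.5, 332, 149 and 118 CPM, intercalated cell markers to 8.03, 2.18, 67.6 and 95.2 CPM and principal cell markers to 14.8, 10.9, 32.2 and 28.3 CPM. Ptprc was at 0 by the rule, and endothelial and mesenchymal markers had at most 2 UMIs per library.

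A gene was counted as higher or lower at a day when its CPM plus 10 differed from D0 by more than 1.5-fold, for those genes whose UMIs in that library and D0 together numbered 50 or more. At D1 190 of 6317 genes (3.01%) were higher and 241 (3.82%) lower. At D4 388 of 5829 genes (6.66%) were higher and 299 (5.13%) lower. At D7 307 of 6573 genes (4.67%) were higher and 142 (2.16%) lower. The median log2 ratio over all these genes was -0.01, -0.02 and 0.04. Scaled to all UMIs, mitochondrial ones included, the counts of higher and lower genes were 212 and 123 at D1, 563 and 122 at D4 and 467 and 49 at D7, with the median of all genes shifted by 0.08, 0.13 and 0.12 on the log2 scale. With TMM factors they were 166 and 275, 352 and 361, and 227 and 256, with shifts of -0.03, -0.04 and -0.09. In the text, rose and fell are used of genes past the 1.5-fold limit.

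Of the magnesium and calcium genes the 2 with the lowest ratios were Egf and Pvalb. Egf, the precursor of the epidermal growth factor that distal tubule cells shed to stimulate Trpm6, stood at 2151, 939, 629 and 552 CPM at D0, D1, D4 and D7. The ratio to D0 was 0.436 (95% interval 0.409 to 0.465), 0.293 (0.268 to 0.320) and 0.257 (0.238 to 0.277). The fall was already present after a single day, and D4 and D7 were lower than D1, with D4 and D7 intervals that overlapped. It was also present in both parts of the mitochondrial range, with D7 ratios of 0.254 at or below 25% and 0.423 above, and at 0.308 in the cells without PT RNA. The share of cells with an Egf UMI after thinning went from 64.9% to 41.6%, 34.2% and 29.7%, against 0.524 to 1.24% of PT cells. TAL cells, the other source of Egf, had ratios of 0.525, 0.382 and 0.246.

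Pvalb, a cytosolic calcium-binding protein of the early DCT, stood at 1012, 419, 182 and 287 CPM. The ratio to D0 was 0.414 (0.376 to 0.455), 0.180 (0.153 to 0.211) and 0.283 (0.254 to 0.316), so the lowest level was at D4. In the cells without PT RNA the ratios were 0.395, 0.233 and 0.366. In cells at or below 25% mitochondrial UMIs they were 0.374, 0.220 and 0.307. After thinning, 41.6%, 20.0%, 11.1% and 15.3% of gated cells held a Pvalb UMI, while PT cells held one in 0.0265 to 0.322%. Pvalb was at 0 to 2.31 CPM in the TAL cells.

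**Figure D2:**
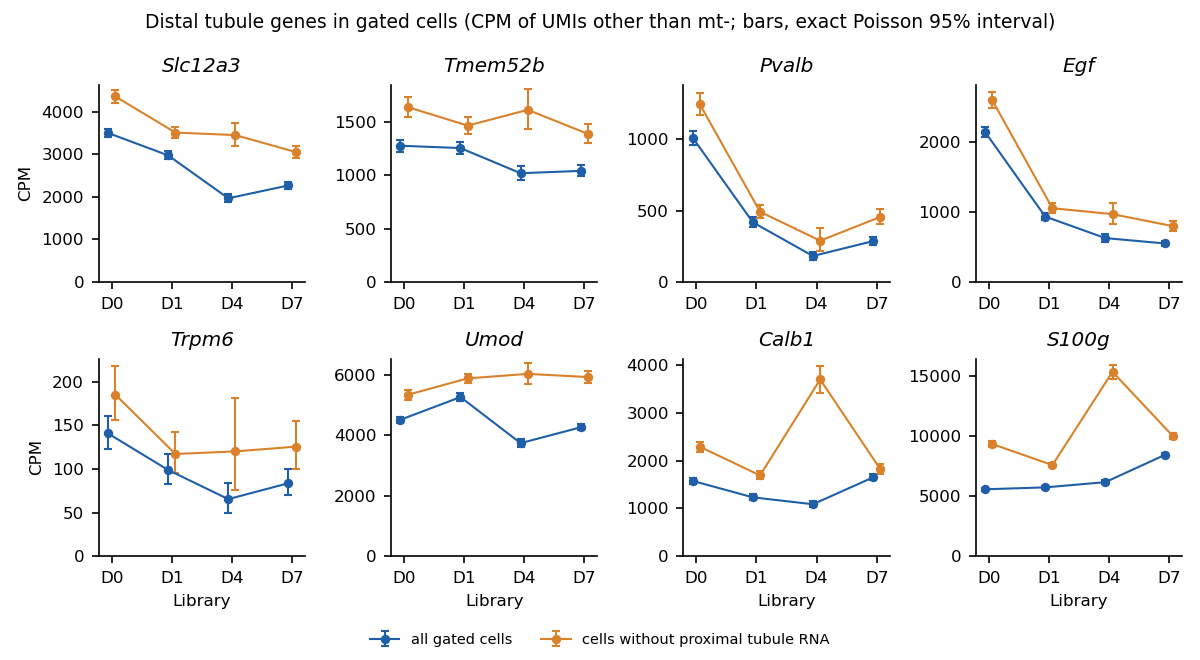
Levels of 8 distal tubule genes by library in all gated DCT cells (blue) and in those without proximal tubule RNA (orange), in CPM, with 95% Poisson counting intervals as bars and lines only to guide the eye. Egf goes from 2151 CPM at D0 to 552 CPM at D7 and Pvalb from 1012 to 287 CPM in all gated cells, while Calb1 and S100g at D4 differ between the selections.

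Of the other magnesium genes, Trpm6, the apical magnesium channel of the DCT, stood at 141, 98.9, 65.4 and 83.7 CPM and fell at D4 and D7, with ratios of 0.464 (0.344 to 0.619) and 0.594 (0.474 to 0.743). In the cells without PT RNA, Trpm6 was at 0.648 and 0.677 times its D0 level, and the D7 value did not pass the limit. At or below 25% mitochondrial UMIs the ratios were 0.602 and 0.792 (0.552 to 1.14), and the D7 call was lost there too. Umod, whose protein uromodulin is made by the TAL and the early DCT, stood at 4508, 5260, 3736 and 4260 CPM and did not pass the limit on any day; it was chosen after its values were seen, as was Klk1. Of the calcium genes, Calb1 stood at 1575, 1231, 1086 and 1649 CPM, with no call on any day in the whole gate. Its D4 ratio depended on the cells compared: it was 1.62 in the 56 cells without PT RNA, 0.553 (0.493 to 0.618) at or below 25% mitochondrial UMIs and 0.454 (0.389 to 0.527) in cells with S100g under 10 UMIs, all past the limit. S100g, the vitamin D-dependent calcium-binding protein calbindin-D9k, stood at 5564, 5723, 6158 and 8450 CPM and rose at D7, with a ratio of 1.52 (1.48 to 1.56). That call was lost in the cells without PT RNA, where the ratio was 1.64 at D4 and 1.07 at D7. The 5 gated cells richest in S100g held 41.2%, 54.4%, 31.5% and 31.0% of its UMIs in the 4 libraries. Klk1, a kallikrein of the connecting tubule and late DCT, had a D7 ratio of 0.934. Of 18 magnesium and calcium genes, 14, 13 and 13 were measured at D1, D4 and D7. Of these 0, 0 and 1 rose, beside 3.01%, 6.66% and 4.67% of all genes, and 2, 3 and 3 fell, beside 3.82%, 5.13% and 2.16%. The medians were -0.01, -0.27 and -0.21 on the log2 scale against -0.01, -0.02 and 0.04 over all genes.

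How much lower genes of salt reabsorption were depended on which cells were compared. The list held 20 genes, of which 18, 17 and 18 were measured. None of them rose or fell at D1, 9 fell at D4 and 5 at D7, beside 5.13% and 2.16% of all genes, and the median log2 ratio was -0.11, -0.64 and -0.41. The list includes Slc12a3, which the gate used; without it 0 of 17, 8 of 16 and 4 of 17 measured genes fell, with medians of -0.09, -0.57 and -0.38. Among the genes that fell at D7 were Slc12a3, the kinase adaptor Klhl3, Ppp1r1a and the monocarboxylate transporter Slc16a7. In cells at or below 25% mitochondrial UMIs the medians were 0.08, -0.16 and -0.10, with 0, 3 and 2 genes lower. Of all genes 207 of 3768, 150 of 3495 and 167 of 4507 fell in those cells. Scaled to all UMIs, 0, 5 and 3 fell, beside 123 of 6317, 122 of 5829 and 49 of 6573 of all genes. In the cells without PT RNA the medians were -0.22, -0.34 and -0.36, counted over the members measured in the whole gate, with 1, 4 and 3 lower. In PT cells the medians were -0.03, 0.02 and 0.02.

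Slc12a3, which the gate used, is given as a description. It stood at 3499, 2972, 1965 and 2266 CPM, and the median gated cell held 13, 11, 7 and 9 UMIs. In the D0 library the level was 4402 CPM in cells above 25% mitochondrial UMIs and 1980 CPM in cells at or below, and the 4 libraries held different mixtures of these. Within each of these ranges the ratios were closer to 1, at 0.953, 0.713 and 0.828 above 25% and 1.03, 0.744 and 0.862 at or below. Ppp1r1a, an inhibitor of protein phosphatase 1, stood at 1664, 1136, 798 and 894 CPM, with a D7 ratio of 0.537 (0.503 to 0.574) and 0.577 in the cells without PT RNA. Slc16a7 stood at 484, 366, 188 and 238 CPM, with a D7 ratio of 0.492 (0.433 to 0.559) and 0.552 in those cells. Klhl3, which directs the WNK kinases to degradation, stood at 81.5, 77.1, 46.1 and 42.5 CPM, with D7 ratios of 0.521 (0.380 to 0.709) and 0.514. At or below 25% mitochondrial UMIs the D7 ratios were 0.639 for Ppp1r1a and 0.613 for Slc16a7, while Klhl3, at 0.759 (0.485 to 1.20), had no call there. Wnk1, chosen after its values were seen, fell at D4 with a ratio of 0.598 (0.564 to 0.633), against 0.932 in the cells without PT RNA.

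Further genes outside these lists fell by similar factors. Wfdc15b, a small secreted protein of the whey acidic protein family, stood at 2287, 1267, 767 and 850 CPM, with ratios of 0.554, 0.335 and 0.372, and its D7 ratio was 0.427 in the cells without PT RNA. It was lower in TAL cells as well, at 0.362, 0.429 and 0.295 times the D0 level. Kl, which encodes klotho, the co-receptor for the phosphate hormone FGF23, stood at 658, 332, 366 and 330 CPM. Its ratio was 0.504 at D1 and 0.502 at D7, and 0.469 at D7 in the cells without PT RNA. The D7 ratio of Kl was 0.549 at or below 25% mitochondrial UMIs. Above 25% it was 0.695 (0.598 to 0.805), which did not pass the limit, and 0.879 (0.747 to 1.03) at D4. Isyna1, the enzyme that makes inositol phosphate for the osmolyte myo-inositol, stood at 158, 74.2, 67.6 and 66.8 CPM, with a D7 ratio of 0.424. All 3 genes were already lower at D1.

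At D7 the 10 lowest ratios by the naming rule were those of Hsbp1l1 (0.270), Atp4a (0.356), Slc22a23 (0.360), Col5a2 (0.364), Wfdc15b, Aebp1 (0.404), Cables1 (0.422), Isyna1, Tmem132a (0.426) and Prom2 (0.431). Atp4a, the catalytic subunit of the gastric-type H,K-ATPase, stood at 171, 129, 76.1 and 60.7 CPM, and its D7 ratio of 0.362 in the cells without PT RNA was close to that in the gate. Aebp1 and Slc22a23 were at 0.630 and 0.523 at or below 25% mitochondrial UMIs. Prom2 was lower in the gate but at 1.68 times the D0 level at D7 when cells with PT RNA and cells above 25% mitochondrial UMIs were both left out. Tmem132a was at 0.633 in the cells without PT RNA. At D4 the lowest were Cables1 (0.217), Itpkb (0.303), Kat2b (0.318), Col5a2 (0.319) and Wfdc15b, and among the lowest at D1 were Afm (0.448), Inpp5a (0.459), Isyna1 (0.471) and Kl.

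Nuclear genes of oxidative phosphorylation were lower together but by less than the 1.5-fold limit. The 20 genes, subunits of the respiratory chain and the ATP synthase, were measured in every comparison, and all 20 had a log2 ratio below 0 at D1, at D4 and at D7. Their median was -0.23, -0.46 and -0.38, against -0.01, -0.02 and 0.04 over all genes and 0.00, -0.06 and -0.08 for these genes in PT cells. None fell at D1 or D7, and 2 fell at D4, Sdhb at 0.659 and Cox6a1 at 0.631. Of all genes 3.82%, 5.13% and 2.16% fell at D1, D4 and D7. Sdhb was chosen after its values were seen. With TMM factors 0, 5 and 5 fell, beside 275 of 6317, 361 of 5829 and 256 of 6573 of all genes. Cox4i1, a subunit of cytochrome c oxidase, stood at 5179 CPM at D0 and had ratios of 0.834, 0.694 and 0.699. At or below 25% mitochondrial UMIs the medians were -0.15, -0.29 and -0.24. Scaled to all UMIs, mitochondrial ones included, they were -0.12, -0.29 and -0.21. At D1, 1 of the 20 genes had a log2 ratio above 0 in the former and 4 in the latter. The mitochondrial share fell over the same libraries, the gate caps it at 50%, and its part in these ratios was not tested.

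Genes of tubule injury rose in the gated cells from the first day. Of 25 genes 13, 11 and 13 were measured, and 10, 7 and 12 rose, beside 3.01%, 6.66% and 4.67% of all genes. The median log2 ratio was 1.43, 1.02 and 1.37. In the cells without PT RNA it was 1.59, 1.35 and 1.54, and in cells at or below 25% mitochondrial UMIs it was 1.97, 1.24 and 1.89. In PT cells the same genes had medians of 0.41, 0.51 and 0.83, with 5, 5 and 8 of them higher. The UMI limit drops members low in both libraries and takes in genes scarce at D0 only where the later library is high. With at least 1 UMI in the gate instead, 14 of 25, 12 of 23 and 16 of 24 genes rose. Of all genes 2.52%, 5.21% and 3.98% rose at that limit. The list's medians were then smaller, at 0.89, 0.81 and 1.06.

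Spp1, which encodes osteopontin, an acidic secreted protein that binds calcium crystals, stood at 1385 CPM at D0, 9548 at D1, 7187 at D4 and 10535 at D7. The ratios were 6.89 (6.59 to 7.21), 5.19 (4.95 to 5.45) and 7.61 (7.28 to 7.96), and 5.79, 5.77 and 6.06 in the cells without PT RNA. After thinning, 45.1%, 84.4%, 84.9% and 90.3% of gated cells held an Spp1 UMI, against 16.7%, 23.1%, 38.6% and 50.2% of PT cells. In the summed counts the order over days differed from that in PT cells, whose Spp1 ratios were 2.20, 4.46 and 8.54. TAL cells had 11.3, 6.71 and 8.67, and shared with the summed gate a D1 value above that at D4. The median gated cell did not show that order, at 950.3, 3663.5, 3877.5 and 5295.2 CPM within the cell. The richest D1 cell held 1130 Spp1 UMIs. In gated cells with no UMI of Lcn2, a division made after the data were seen, the ratios were 4.65, 4.45 and 4.96.

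Lcn2, the secreted iron-siderophore carrier NGAL and a marker of distal tubule injury, had no UMI in the 347 gated cells at D0, and 218, 66 and 798 UMIs at D1, D4 and D7. Set against a floor of 3 counts over the D0 gate, these levels were 85.5-fold, 38.2-fold and 291-fold higher, a value that leaves out the counting error of the later library. The UMIs came from few cells: 18 of 255 at D1, 18 of 199 at D4 and 54 of 300 at D7 held any, and the 5 richest cells held 81.7%, 56.1% and 59.4% of them. After thinning the shares were 0 of 339 cells at D0 (up to 0.885% by a floor of 3 counts, and up to 1.08% by the exact 95% Clopper-Pearson interval), then 3.2%, 3.52% and 11.0%, against 0.0552 to 0.588% of PT cells. Havcr1, the PT injury marker KIM-1, had 0, 12, 10 and 16 UMIs and was not measured at the 50-UMI limit. After thinning it was seen in 0 to 0.667% of gated cells, at or below its share in PT cells at D1, D4 and D7.

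**Figure D3:**
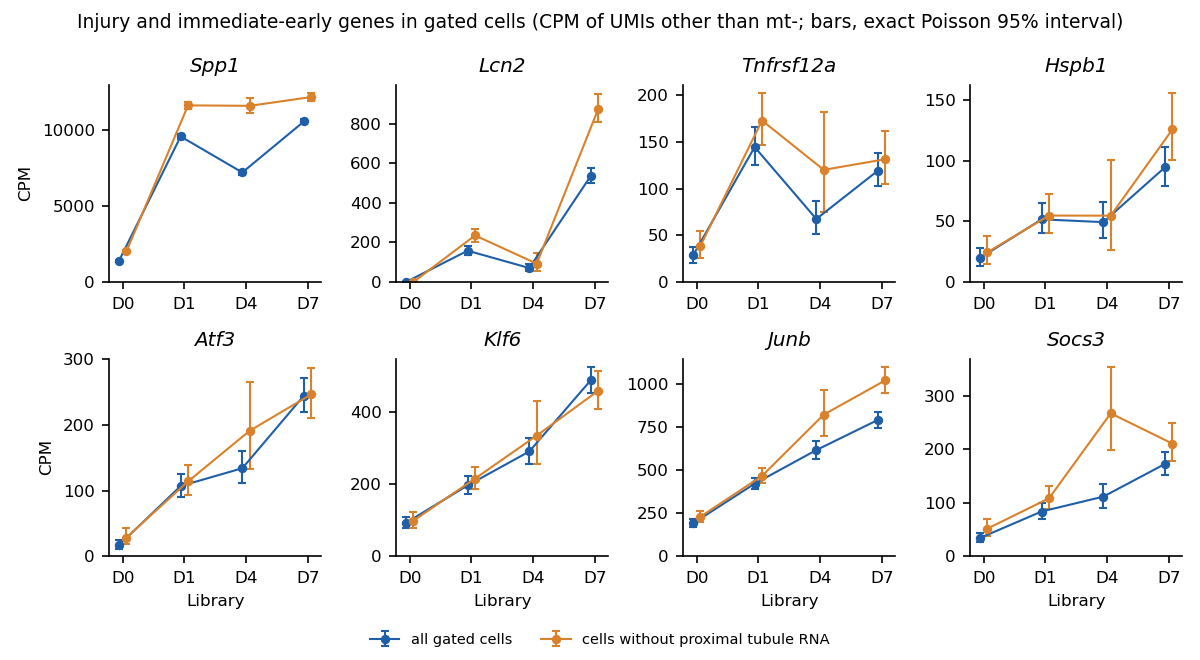
Levels of 8 injury, heat shock and immediate-early genes by library in all gated DCT cells (blue) and in those without proximal tubule RNA (orange), in CPM, with 95% Poisson counting intervals as bars. Spp1 is high from D1 on, while Atf3 and Klf6 reach 245 and 487 CPM at D7 in all gated cells.

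Tnfrsf12a, Clu, Krt8 and Lgals3 rose in all 3 comparisons. Tnfrsf12a, the receptor Fn14 for the cytokine TWEAK, stood at 28.4, 145, 67.6 and 120 CPM, with ratios of 5.09 (3.68 to 7.18), 2.38 (1.60 to 3.56) and 4.20 (3.02 to 5.95). At D1 the UMIs of Tnfrsf12a were held by 50 of 255 cells, with 43 in the richest. In the D1 cells with no Lcn2 UMI its ratio was 2.83 (1.98 to 4.10). The Tnfrsf12a ratios in TAL cells were 1.30, 1.19 and 1.46. The following were chosen after their values were seen. The extracellular chaperone clusterin, Clu, had ratios of 3.31, 2.11 and 2.58. The keratin Krt8 had 2.79, 2.45 and 2.98, and the galectin Lgals3 had 2.86, 2.24 and 3.60. Sox9, a transcription factor of tubule repair, rose at D7, with 34, 38, 29 and 104 UMIs and a ratio of 3.34 (2.25 to 5.08). Fgg, the fibrinogen gamma chain, had 4, 18, 28 and 59 UMIs and a D7 ratio of 16.1 (5.97 to 61.1).

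Immediate-early factors, transcription factors and feedback regulators induced within minutes of a stimulus or of tissue handling, rose in more of their members at each later day. Of 20 genes 19 were in the table and 16, 16 and 18 were measured. Of these 10, 15 and 18 rose, beside 3.01%, 6.66% and 4.67% of all genes, with medians of 0.84, 1.40 and 1.80 on the log2 scale. In PT cells the medians were 0.03, 0.78 and 0.96. In cells at or below 25% mitochondrial UMIs 9 of 16, 13 of 16 and 16 of 17 rose. In the cells without PT RNA the counts were 9 of 16, 13 of 14 and 16 of 16 when the 50-UMI limit was applied to those cells. The time between tissue collection and lysis is not given in the labels for each library, and its part was not tested.

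Atf3, a stress-induced factor of the ATF/CREB family, stood at 16.7, 107, 134 and 245 CPM, with ratios of 6.41 (4.23 to 10.0), 8.04 (5.27 to 12.7) and 14.7 (9.93 to 22.6). In the cells without PT RNA the ratios were 4.02, 6.75 and 8.71, so the D7 ratio was smaller there. It was 10.65 at or below 25% mitochondrial UMIs and 11.15 above, both below that of the whole gate. Atf3 was already at 251 CPM in the D0 TAL cells, where the ratios were 1.04, 1.32 and 2.23. Klf6 stood at 92.0, 196, 290 and 487 CPM, with ratios of 2.12, 3.15 and 5.29 (4.43 to 6.36). Its D1 value rested in part on few cells. Any Klf6 UMI was held by 23.6% of gated cells at D0 and 25.9% at D1, and the richest D1 cell held 50. In the D1 cells with no Lcn2 UMI the ratio was 1.44 (1.15 to 1.81), below the limit. Junb stood at 190, 420, 614 and 790 CPM, with ratios of 2.21, 3.24 and 4.16 (3.67 to 4.74). At D7 the ratios of Klf6 and Junb were 4.51 and 3.60 in cells at or below 25% mitochondrial UMIs and 1.69 and 1.64 in cells above. Egr1 stood at 89.0, 187, 275 and 389 CPM and Ier2 at 97.0, 196, 238 and 415 CPM, with D7 ratios of 4.38 and 4.28. Socs3, the inhibitor that cytokine receptors induce through STAT3, stood at 34.0, 83.6, 112 and 173 CPM, with ratios of 2.46, 3.28 and 5.09, against 4.09 at D7 in the cells without PT RNA and 8.93 in PT cells.

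The immediate-early genes that rose at D7 were looked up in RefSeq's promoters (assembly GRCm38.p6), and 15 of 18 had an entry. Those without one, Egr1 and Ier2 among them, were not searched. The 250 bases before each start were searched on both strands for the CArG box, the binding sequence of serum response factor; for TGACGTCA, the full cyclic AMP response element; for TGANTCA, the AP-1 site; and for TTCNNNGAA, the STAT element. None of the 4 patterns overlapped another in the sequences shown. Btg2 and Dusp1 held TGACGTCA, which occurs in 1.77% of 27025 promoters, and Zfp36 held a CArG box (1.62% of all) and TTCNNNGAA (8.13% of all). No immediate-early promoter that was searched held TGANTCA, against 7.82% of all. The 3 promoters with a match are shown with that of Socs3, which also rose and holds TTCNNNGAA. Capitals mark the matches. A match of letters is a description and not a binding site. All 4 genes lie on the minus strand, at chr1:134079156-134079405 (Btg2), chr17:26508473-26508722 (Dusp1), chr7:28379229-28379478 (Zfp36) and chr11:117969367-117969616 (Socs3), and each sequence is written 5′ to 3′ on the gene's strand and ends just before the start.
Btg2: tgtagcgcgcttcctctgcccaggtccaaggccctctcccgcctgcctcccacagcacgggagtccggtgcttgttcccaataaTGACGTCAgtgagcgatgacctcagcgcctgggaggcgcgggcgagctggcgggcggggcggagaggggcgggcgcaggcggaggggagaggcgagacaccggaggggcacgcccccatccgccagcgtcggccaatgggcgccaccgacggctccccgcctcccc
Dusp1: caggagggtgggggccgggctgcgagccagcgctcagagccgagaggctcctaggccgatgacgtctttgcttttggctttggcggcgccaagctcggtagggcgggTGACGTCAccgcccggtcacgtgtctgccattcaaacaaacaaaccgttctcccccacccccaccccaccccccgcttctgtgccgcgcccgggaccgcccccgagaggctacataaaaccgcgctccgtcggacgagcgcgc
Zfp36: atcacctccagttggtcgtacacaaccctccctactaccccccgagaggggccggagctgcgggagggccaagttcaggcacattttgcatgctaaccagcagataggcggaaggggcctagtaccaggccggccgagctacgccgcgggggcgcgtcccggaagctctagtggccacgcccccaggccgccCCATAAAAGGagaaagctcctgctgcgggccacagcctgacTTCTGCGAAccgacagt
Socs3: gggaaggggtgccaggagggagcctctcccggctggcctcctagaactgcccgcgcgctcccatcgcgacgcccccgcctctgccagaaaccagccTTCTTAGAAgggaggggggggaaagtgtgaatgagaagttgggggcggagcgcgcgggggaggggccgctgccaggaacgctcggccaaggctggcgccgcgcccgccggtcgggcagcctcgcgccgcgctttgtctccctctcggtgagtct

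The 3 immediate-early genes shown differed in timing, and they were chosen for their sequences after their values were seen. Btg2, an antiproliferative cofactor, had 379, 590, 539 and 1306 UMIs and ratios of 1.83, 2.47 and 3.77. Zfp36, which speeds the decay of AU-rich mRNAs, had 107, 172, 176 and 375 UMIs and ratios of 1.89, 2.86 and 3.83. Dusp1, a phosphatase of MAP kinases, had 264, 230, 385 and 470 UMIs, no call at D1 (1.03) and ratios of 2.53 and 1.95 at D4 and D7. Btg2 and Zfp36 rose on all 3 days and Dusp1 at D4 and D7.

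Single genes of the heat shock, growth arrest and stress response lists rose, and most members of the heat shock, unfolded protein and oxidative stress lists did not. The counts below stand beside 3.01%, 6.66% and 4.67% of all genes that rose at D1, D4 and D7. Of 13 measured genes of 14 inducible and small heat shock proteins 2, 4 and 4 rose, with medians of 0.21, 0.33 and 0.32. Hspb1, the small heat shock protein HSP27, stood at 19.8, 51.6, 49.3 and 94.5 CPM, with ratios of 2.61, 2.5 and 4.78 (3.24 to 7.26). At D1 its UMIs were held by 24 of 255 cells, with 21 in the richest. In the D1 cells with no Lcn2 UMI the ratio was 1.17 (0.681 to 1.99). At or below 25% mitochondrial UMIs the D4 ratio was 1.46 (0.834 to 2.62). The D7 ratio was 3.385 (2.14 to 5.59) there and 2.37 (0.886 to 6.35) above 25%, both below that of the whole gate. Hspb1 was at 0.540 times the D0 level at D4 when cells with PT RNA and cells above 25% mitochondrial UMIs were both left out, which left 30 cells at D4. The inducible chaperones Hspa1a and Hspa1b rose at D4 and D7, with D7 ratios of 3.56 and 2.14, and their cochaperone Dnajb1 with 2.73. Of 8, 8 and 9 measured of 10 growth arrest genes 4, 4 and 5 rose. Gadd45a, a DNA damage-inducible regulator, had ratios of 2.97, 2.90 and 4.87, Gadd45b 4.26, 5.04 and 4.63 and Gadd45g 1.68, 2.55 and 2.31. Gdf15, a stress-induced cytokine, stood at 29.0, 74.2, 169 and 174 CPM, with a D7 ratio of 6.00 (4.38 to 8.37). It was abundant in PT cells, at 89.8, 99.0, 304 and 409 CPM, and its D7 ratio in the cells without PT RNA was 5.23, at 80.8 CPM. The D7 ratio of Gdf15 was 4.67 at or below 25% mitochondrial UMIs and 5.20 above. In the list of 14 unfolded protein and integrated stress response genes, 2 of 11, 3 of 10 and 3 of 10 measured rose. Ddit3, the factor CHOP, had ratios of 2.03, 4.13 and 3.01, and its D4 ratio was 2.00 in the cells without PT RNA. Of 15 measured of 16 oxidative stress and iron genes 2, 2 and 1 rose, with the D7 count near the share of all genes, and the medians were 0.00, 0.14 and 0.15. The metallothioneins Mt1 and Mt2, which bind zinc and other metals, were highest at D1, at 2.05 and 2.07 times the D0 level.

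**Figure D4:**
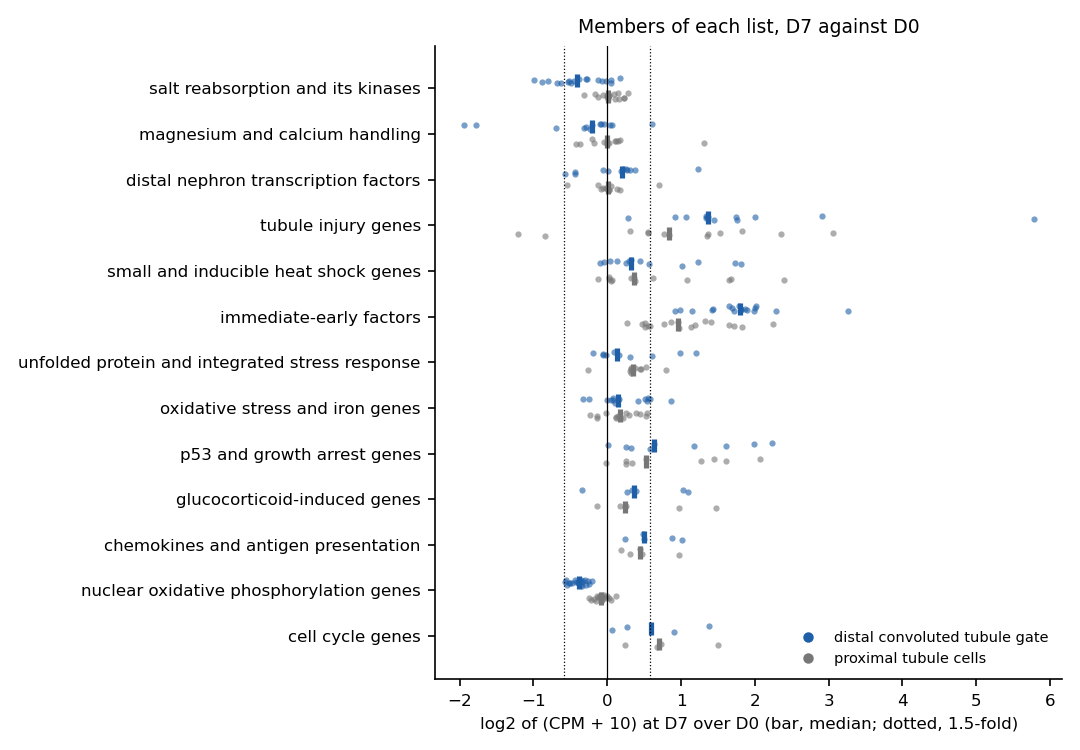
Members of each gene list at D7 against D0, as log2 ratios of CPM plus 10, in the DCT gate (blue) and in proximal tubule cells (grey), with a point per measured gene, a bar at the list's median and dotted lines at 1.5-fold. In the gate the immediate-early genes lie above the dotted line with a median of 1.80, and the oxidative phosphorylation genes lie below 0 with a median of -0.38.

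Genes with the highest ratios at D1 were in part carried by a few cells. By the naming rule these were Lcn2, Retnla, Wfdc17, Ccl6 and Cxcl10. Retnla, Wfdc17 and Ccl6, genes of myeloid cells, had 148, 116 and 79 UMIs at D1 and 0 at D0. When the 2 D1 cells with at least 3 UMIs of leukocyte markers were left out, they had 2, 0 and 3. Cxcl10, an interferon-induced chemokine, kept its 80 UMIs, held by 7 cells, and Lcn2 kept its 218. The leukocyte marker sum was 332 CPM at D1 against 39.5 at D0. At D4 the highest by the rule were Lcn2, Sprr1a, Atf3, Spp1 and Gadd45b.

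The gated cells were not uniform in calcium-handling RNA. A cut at 10 UMIs of S100g, set after the data were seen, divided them into 47, 50, 43 and 85 cells at or above and 300, 205, 156 and 215 below; the cut marks a range and not a cell type. Calb1 moved with it, at 6444, 4386, 4181 and 4716 CPM above the cut and 639, 334, 290 and 435 CPM below. Pvalb went the other way, at 491 CPM above and 1112 CPM below in the D0 library, and Egf stood at 1150 and 2343 CPM. The share of gated cells above the cut was 13.5%, 19.6%, 21.6% and 28.3%, and S100g itself sets that share. Slc12a3 was alike on both sides at D0, at 3489 and 3501 CPM.

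Egf, Kl, Spp1 and Atf3 changed in the same direction on both sides of the S100g cut at D7. Egf at D7 was at 0.424 times its D0 level above the cut and 0.246 below. Kl was at 0.364 above the cut, from 1522 to 555 CPM, and 0.490 below, from 492 to 241 CPM. Spp1 was at 3.45 times its D0 level above, from 3803 to 13114 CPM, and 10.3 below, from 920 to 9515 CPM. Atf3 was at 6.52 (3.16 to 15.6) above, on 8 UMIs at D0, and 18.8 (11.8 to 31.7) below, with intervals that overlapped. At D4 Atf3 was at 1.37 (0.447 to 4.18) above the cut. Klk1 did not share a direction, at 0.530 above the cut, from 16485 to 8731 CPM, and 1.10 (1.03 to 1.18) below it. In Spp1 and Atf3 the D7 ratio was the larger below the cut; whether the 2 sides differed beyond the spread between animals was not tested.

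The cells with Lcn2 at D7 differed from the other gated cells of the same library in other genes too. The 54 cells with at least 1 UMI were compared with the 246 without, a division chosen after the data were seen on an outcome gene, so the values are a description of these cells within 1 library. Spp1 stood at 25477 CPM in the former and 6865 CPM in the latter, Tnfrsf12a at 267 and 83.2 CPM, Klf6 at 862 and 395 CPM and Hspb1 at 250 and 56.3 CPM. Egf stood at 134 and 655 CPM and Pvalb at 51.3 and 345 CPM. Socs3 was lower in the cells with Lcn2, at 113 against 188 CPM. Slc12a3, at 1793 and 2382 CPM, and Umod, at 4377 and 4231 CPM, were present in both. S100g stood at 2245 and 9974 CPM and Calb1 at 267 and 1988 CPM, in the same order. The cells with Lcn2 had a median mitochondrial share of 12.2%, 27 of 54 held PT RNA, and 12 were above the S100g cut. The cells without Lcn2 had a median share of 21.9%, 113 of 246 held PT RNA, and 73 were above the cut. The part of the mitochondrial share in these differences was not tested.

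**Figure D5:**
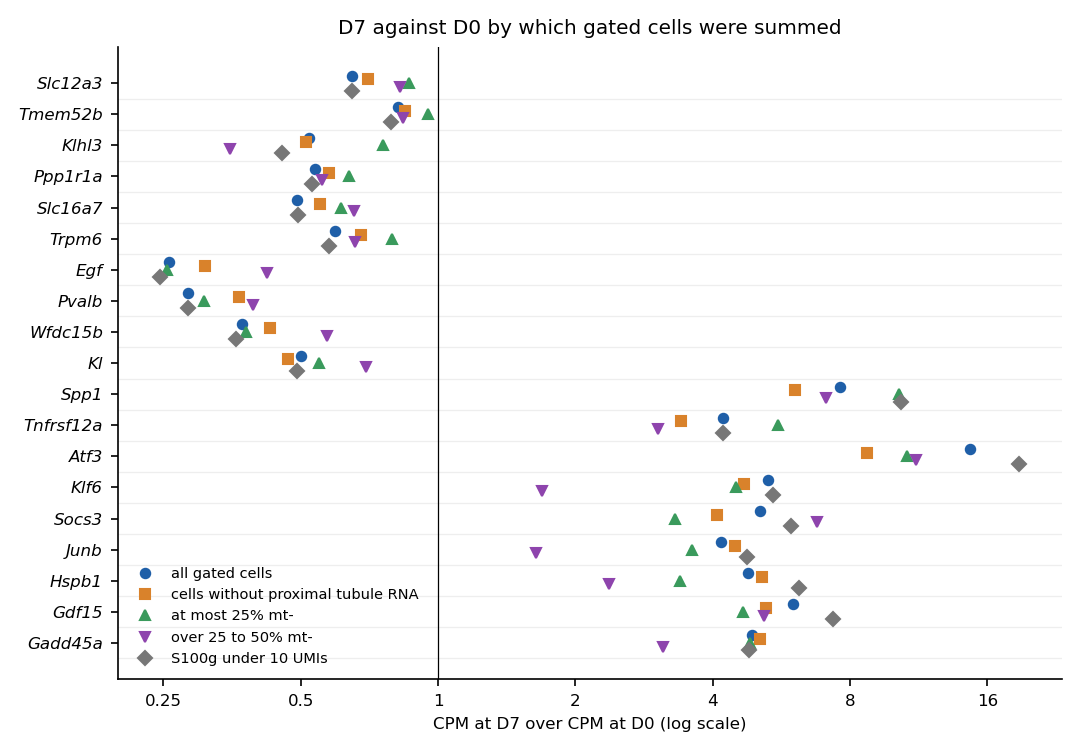
Ratio of CPM at D7 to CPM at D0 on a log axis for 19 genes, with a marker for each selection of gated DCT cells (all, without proximal tubule RNA, at most 25% and over 25 to 50% mitochondrial UMIs, S100g under 10 UMIs). Egf and Pvalb lie below 1 and Spp1 and Atf3 above 1 in each selection, while Klf6 and Junb lie at 1.69 and 1.64 in cells over 25% mitochondrial UMIs and above 3 in the others.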

How the data were processed

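Single-cell RNA was counted in 4 libraries, 1 per time point. The authors deposited a matrix of UMI counts for each, made with Cell Ranger 3.1.0 and the mm10 genome per the submitters' processing notes; 3.0.1 is the software version in the headers of the matrices. The tables held 27998 genes, of which 13 were mitochondrial; 56 gene names that are not unique were left out of named results. Counts of the gated cells were summed within a library and scaled to CPM of genes outside the mitochondrial genome, since the mitochondrial share differed between libraries. With 1 library per time point there was no test. Library totals were 99337001, 85009491, 91122085 and 94512170 UMIs, and the gated cells held 1618901, 1375393, 932632 and 1481786 UMIs of other than mitochondrial genes. Ratios have exact 95% intervals for 2 Poisson counts and shares exact Clopper-Pearson intervals. Against a level of 0 a floor of 3 counts over the gate was used.

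The members and lists were chosen with earlier results of these data known. Genes were named by a rule. At D7 these were the 10 highest and 10 lowest CPM ratios, and at D1 and D4 the 5 highest and 5 lowest, of those with 50 or more UMIs over the compared libraries, 50 CPM in the higher library and a carried PT level of at most 0.25 of the level; marker, mitochondrial, ribosomal protein, haemoglobin and unnamed genes were left out. Up to 4 members of each of 13 lists with the largest change at D7 were added, with Slc12a3, Calb1, Pvalb, Tmem52b, Havcr1, Lcn2 and Spp1. Some genes that met this rule are not reported here. The parts of the gate by S100g, Lcn2 and mitochondrial range were chosen after the data were seen. No doublet caller was run; leaving out cells with PT RNA also removes doublets with PT cells. Of the gated barcodes 1, 1, 0 and 4 also occurred in another library. Alternatives changed the mitochondrial limit, the depth floor, the Slc12a3 threshold, the treatment of PT RNA, the scaling (all UMIs, or TMM factors of edgeR 4.0.16 in R 4.3.3), the pseudocount of 10 CPM and the 50-UMI limit. The code was tested on simulated data. Python 3.11.15, numpy 2.4.6, scipy 1.17.1, pandas 2.3.3 and matplotlib 3.10.9 were used. Gene names were those of the files, and promoter sequences came from RefSeq (GRCm38.p6).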

Additional observations from a re-analysis of the deposited data

Results flagged for a closer look

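Sprr1a, a small proline-rich protein of stressed epithelia, moved in opposite directions in the gated cells and in PT cells at D4. In the gate its UMIs numbered 5 in the D0 library and 229, 75 and 18 in the later ones, held by 5, 14, 8 and 10 cells, and the D4 ratio to D0 was 26.0. In PT cells of the same libraries the D4 ratio was 0.367, and the ratio was also below 1 at D1 (0.801) and D7 (0.127). Each ratio rests on 1 library per time point, and the difference between the cell types was not tested. The gated ratio in the cells without PT RNA was 38.2 at D4.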

How the results depend on the processing

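No paired analysis was possible because each time point has only replicate 1, and leaving out a replicate leaves no library at that time point. Of CPM ratios under the alternatives 1613 kept their direction and moved by less than their interval, 431 moved and 16 reversed; of list medians 431 stayed and 36 moved. The cause of each change below was not tested. The alternatives that leave out cells with PT RNA and cells above 25% mitochondrial UMIs together, or cells with leukocyte or intercalated cell RNA, or cells rich in S100g, were chosen after the data were seen. Depth limits the selections: with PT RNA left out 56 cells remained at D4, and with the lower mitochondrial limit as well 30 remained. Some D4 ratios then rest on few UMIs.

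The number of higher genes at D1 (190) was 391 with PT RNA taken off, 344 with a pseudocount of 1 CPM and 350 with at least 1 UMI; lower genes (241) were 133 without PT RNA cells, 123 scaled to all UMIs, 429 with a pseudocount of 1 CPM and 117 in the cells without PT RNA at or below 25% mitochondrial UMIs. Higher genes at D4 (388) were 199 at or below 25%, 175 without PT RNA cells, 233 with Slc12a3 of at least 10 UMIs, 678 with PT RNA taken off, 715 with at least 1 UMI and 66 with both exclusions. Lower genes at D4 (299) were 150 at or below 25%, 557 with PT RNA taken off, 122 scaled to all UMIs, 462 with a pseudocount of 1 CPM, 471 with at least 1 UMI and 95 with both exclusions. Higher genes at D7 (307) were 688 with PT RNA taken off, 467 scaled to all UMIs, 573 with a pseudocount of 1 CPM, 559 with at least 1 UMI and 183 with both exclusions. Lower genes at D7 (142) were 384 with PT RNA taken off, 49 scaled to all UMIs, 256 with TMM factors and 282 with a pseudocount of 1 CPM.

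For medians on the log2 scale, salt reabsorption was 0.08 at D1 and -0.16 at D4 at or below 25% mitochondrial UMIs, and at D4 -0.35 without PT RNA cells, -0.23 with Slc12a3 of at least 10 UMIs, -0.24 with PT RNA taken off and -0.10 with both exclusions. Magnesium and calcium genes were 0.088 at D4 with both exclusions. Transcription factors at D7 were 0.43 at or below 25% and 0.35 with Slc12a3 of at least 10 UMIs. Injury genes at D7 were 1.06 with at least 1 UMI. Heat shock genes at D4 were 0.27 without PT RNA cells and 0.27 with Slc12a3 of at least 10 UMIs. Immediate-early genes were 1.21 at D4 at or below 25%, and 1.76 at D4 and 2.13 at D7 with PT RNA taken off. Oxidative stress genes were 0.20 at D1 and -0.072 at D4 with PT RNA taken off, and at D7 0.036 at or below 25% and -0.007 with Slc12a3 of at least 10 UMIs. Glucocorticoid-induced genes at D1 were 0.42 without PT RNA cells, 0.42 with PT RNA taken off and 0.61 with both exclusions, and chemokine and antigen genes at D1 were 0.16 with both exclusions. Oxidative phosphorylation genes were, at D1, -0.32 without PT RNA cells, -0.35 with PT RNA taken off, -0.12 scaled to all UMIs, -0.27 with TMM factors and -0.29 with both exclusions. At D4 they were -0.29 at or below 25%, -0.34 with Slc12a3 of at least 10 UMIs, -0.29 scaled to all UMIs and -0.30 with both exclusions, and at D7 -0.24, -0.27, -0.21 and -0.33 in the same order.

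The share of passing barcodes inside the gate at D0, D1, D4 and D7 was 0.849%, 1.21%, 0.939% and 1.68% at or below 25% mitochondrial UMIs, 1.498%, 1.66%, 0.348% and 1.11% without PT RNA cells, and 1.51%, 1.29%, 0.435% and 0.934% with Slc12a3 of at least 10 UMIs, and with at least 3000 UMIs it was 2.78% at D0 and 2.63% at D1. At or below 25% the lowest share was that of D0. Carried PT RNA was 44.2% and 29.0% at D0 and D1 at or below 25%, 5.55%, 5.30%, 6.87% and 7.19% without PT RNA cells, and 9.73%, 34.3% and 18.0% at D1, D4 and D7 with Slc12a3 of at least 10 UMIs.

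The ratios that reversed were, with both exclusions, B2m 0.556 at D4, Cd74 0.800 at D1, 0.0788 at D4 and 0.555 at D7, Hspb1 0.540 at D4, Pax8 0.315 at D4, Prom2 1.89 at D4 and 1.68 at D7, Sgk1 0.919 at D7 and Socs3 0.957 at D1. Without PT RNA cells they were Cd74 0.141 and Pax8 0.707 at D4 and Sgk1 0.774 at D7. With Slc12a3 of at least 10 UMIs they were Cd74 0.909 at D1 and 0.909 at D4, and at or below 25% Cd74 was 0.874 at D7.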

Other observations

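Of 14 transcription factors of the distal nephron 12, 10 and 12 were measured at D1, D4 and D7, and 1 rose on each day while 0, 2 and 0 fell. Of all genes 3.01%, 6.66% and 4.67% rose and 3.82%, 5.13% and 2.16% fell, so that a single gene of this list is near the share of all genes. Their medians were -0.03, -0.10 and 0.20 on the log2 scale. Pax8, a factor of all nephron segments, was the gene that rose, at 1.88, 4.5 and 3.04 times its D0 level, but it was at 0.707 at D4 in the cells without PT RNA, and its level in PT cells was 72.9, 69.3, 122 and 125 CPM. Sall3 was at 0.477 times its D0 level at D4.

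Of 6 measured of 8 glucocorticoid-induced genes 0, 2 and 2 rose, beside the 3.01%, 6.66% and 4.67% of all genes that rose, with medians of 0.00, 0.50 and 0.36. The same shares stand beside the counts of the next lists, which had few measured members. Sgk1, a kinase that controls distal sodium transport, was at 2.68 times its D0 level at D7, but at 0.774 in the cells without PT RNA; its PT level was 46.7, 35.7, 127 and 148 CPM. Of 15 chemokine and antigen presentation genes 6, 5 and 5 were measured and 4, 3 and 2 rose, with medians of 0.75, 0.80 and 0.50. Cx3cl1, the membrane-bound chemokine fractalkine, had 27, 49, 34 and 58 UMIs and rose on all 3 days, with ratios of 2.14, 2.19 and 2.35. Cd74, also a leukocyte marker, had a D4 ratio of 3.84 in the gate and 0.141 in the cells without PT RNA. Of 12 cell cycle genes 4, 3 and 4 were measured and 1, 1 and 2 rose, with medians of 0.49, 0.10 and 0.59. Stmn1, a microtubule regulator, was at 3.23 times its D0 level at D7 and at 1.78 in the cells without PT RNA. Pcna, the DNA polymerase clamp, had 18, 40, 27 and 44 UMIs and a D7 ratio of 2.67.

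Il1f6, an epithelial cytokine of the interleukin 1 family chosen after its values were seen, had 0, 72, 0 and 70 UMIs in the gate, held by 4 cells at D1 and 5 at D7.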
